A study of Apostichopus japonicus with 12 samples.

Results

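Fatty acid synthesis in the gut of Apostichopus japonicus, a sea cucumber, is described here through 8 gene models of the 26461 in the deposited expression table. They are ATP-citrate synthase, acetyl-CoA carboxylase, fatty acid synthase, the elongase ELOVL6, stearoyl-CoA desaturase 5, peroxisomal carnitine O-octanoyltransferase and a pair of assembled models without a protein name, 1 beside fatty acid synthase and 1 beside ELOVL6. The 8 were picked by their identifiers after their low levels under heat or low oxygen against the control had been seen. Their differences between any treated group and the control are therefore given as a description with no test. All 8 passed the filter on low values (FPKM 1 or more, 3 or more libraries), which kept 15615 models for testing. For the model beside ELOVL6 only the 3 control libraries and 1 library of the combined group reached that FPKM, so it passed through the group in which it was high.

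Animals build fatty acids in the cytosol from acetyl-CoA that ATP-citrate synthase cuts from citrate. Acetyl-CoA carboxylase turns acetyl-CoA into malonyl-CoA, the committed step, and fatty acid synthase joins malonyl units into palmitate. Elongases and desaturases then lengthen the chain and add double bonds, while carnitine O-octanoyltransferase carries medium-chain acyl groups out of the peroxisome. These roles are known mainly from vertebrates, and the sea cucumber models were named by their matches to Swiss-Prot proteins.

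RNA came from the intestines of single animals of around 100 g, with 12 libraries in 4 groups of 3. Whether animals shared a tank is not recorded in the labels. Control animals were kept at 18 °C. Heating rods brought the high temperature group, called heated here, to 26 °C with oxygen at 7 mg/L, and nitrogen brought the low oxygen group to 3 mg/L at 18 °C. The combined group had both, 26 °C with 3 mg/L. Exposure lasted 6 h, and no strain or genotype is named for any group. Since the series text also states 3 mg/L for the control, the low oxygen value, the control's oxygen is not settled. The libraries held 8146906 to 10855050 fragments, recovered from the FPKM (fragments scaled by model length and library size). Combined replicates 1 and 3 had been scaled by 0.529 and 0.526 of their fragment totals, against 0.935 to 1.58 in the other libraries, so their FPKM are high for their counts. With 3 libraries a group, p-values set each difference against the spread within all 4 groups, an estimate that borrows from the other models tested. They do not cover variation beyond these 12 libraries.

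The 6 named genes lie apart from each other. Fatty acid synthase (evm_TU_Chr13_41) is a 25-exon model on the minus strand of chromosome 13 (1554705 to 1575109), and acetyl-CoA carboxylase (evm_TU_Chr13_553) has 50 exons on the plus strand of the same chromosome (19554977 to 19611130). ATP-citrate synthase (evm_TU_Chr20_7) has 28 exons on the minus strand of chromosome 20 (305463 to 338978), and the octanoyltransferase (evm_TU_Chr20_593) has 15 exons on the minus strand of that chromosome (19878324 to 19887522). ELOVL6 (evm_TU_Chr8_125) is a single-exon model on the plus strand of chromosome 8 (3373410 to 3374243). Stearoyl-CoA desaturase 5 (evm_TU_Chr15_727) has 4 exons on the plus strand of chromosome 15 (23005149 to 23007875). The sources used here name no genome build for these coordinates.

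The synthesis enzymes were highest in the control and were lowest, by group mean, in the heated group. ATP-citrate synthase measured 45.8, 60.6 and 154 FPKM in control replicates 1, 2 and 3. It measured 12.2, 12.3 and 9.88 FPKM in the heated group, 17.4, 12.7 and 14.99 in low oxygen, and 11.1, 26.7 and 28.9 in the combined group. All 9 treated libraries lay below the lowest control library, and the gene stayed detected in each of them. In bulk tissue, fewer cells that express a gene and less of its RNA per cell cannot be told apart, here and below. Acetyl-CoA carboxylase measured 10.2, 14.2 and 28.8 FPKM in the control, 0.764, 1.73 and 2.39 in the heated group, 7.08, 5.94 and 2.92 in low oxygen, and 0.157, 8.11 and 0.573 in the combined group. Its 3 control libraries were again above all 9 treated ones, and combined replicate 2 stood far above the other two libraries of its group. Fatty acid synthase measured 22.8, 327 and 244 FPKM in the control. It measured 1.28, 1.74 and 1.17 FPKM in the heated group, 12.05, 7.47 and 16.5 in low oxygen, and 1.53, 36.9 and 4.44 in the combined group. The control libraries differed among themselves by 14.4 times, and combined replicate 2 lay above control replicate 1. In fragments this gene had 68365 over the 3 control libraries and 425 over the 3 heated libraries, so it was still detected in every library.

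The genes that modify or move acyl chains reached 0 in some treated libraries. ELOVL6, which in mammals lengthens palmitate, measured 36.4, 32.8 and 155 FPKM in the control. It measured 0, 2.35 and 0 FPKM in the heated group, 2.86, 0.192 and 0.192 in low oxygen, and 0.244, 16.1 and 0 in the combined group. No treated library reached the lowest control library. Stearoyl-CoA desaturase 5, which in mammals puts the first double bond into saturated chains, measured 21.3, 166 and 375 FPKM in the control. It measured 0.109, 1.48 and 0 FPKM in the heated group, 7.23, 0.242 and 1.70 in low oxygen, and 0, 41.1 and 0 in the combined group. Combined replicate 2 exceeded control replicate 1, while the other two combined libraries had no fragment of this gene. Carnitine O-octanoyltransferase measured 34.7, 173 and 288 FPKM in the control, 0.237, 1.40 and 0 in the heated group, 7.63, 4.69 and 6.09 in low oxygen, and 1.34, 29.0 and 0 in the combined group. Its control libraries were above all treated ones, and the low oxygen libraries were above the heated ones. A count of 0 allows up to 3 fragments, which for these 3 genes is 0.106 to 0.747 FPKM in the libraries concerned, by counting error only.

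The assembled models had the same high control group. The model beside fatty acid synthase measured 123.6, 282 and 132 FPKM in the control. It measured 0, 2.75 and 0.361 FPKM in the heated group, 3.11, 0 and 14.6 in low oxygen, and 2.74, 40.6 and 7.93 in the combined group. The model beside ELOVL6 measured 17.6, 8.13 and 22.04 FPKM in the control, 0, 0.289 and 0 in the heated group, 0.682, 0 and 0.0295 in low oxygen, and 0, 2.19 and 0 in the combined group. For both, every control library lay above every treated library, and 5 treated libraries had no fragment of the model beside ELOVL6.

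**Figure D1:**
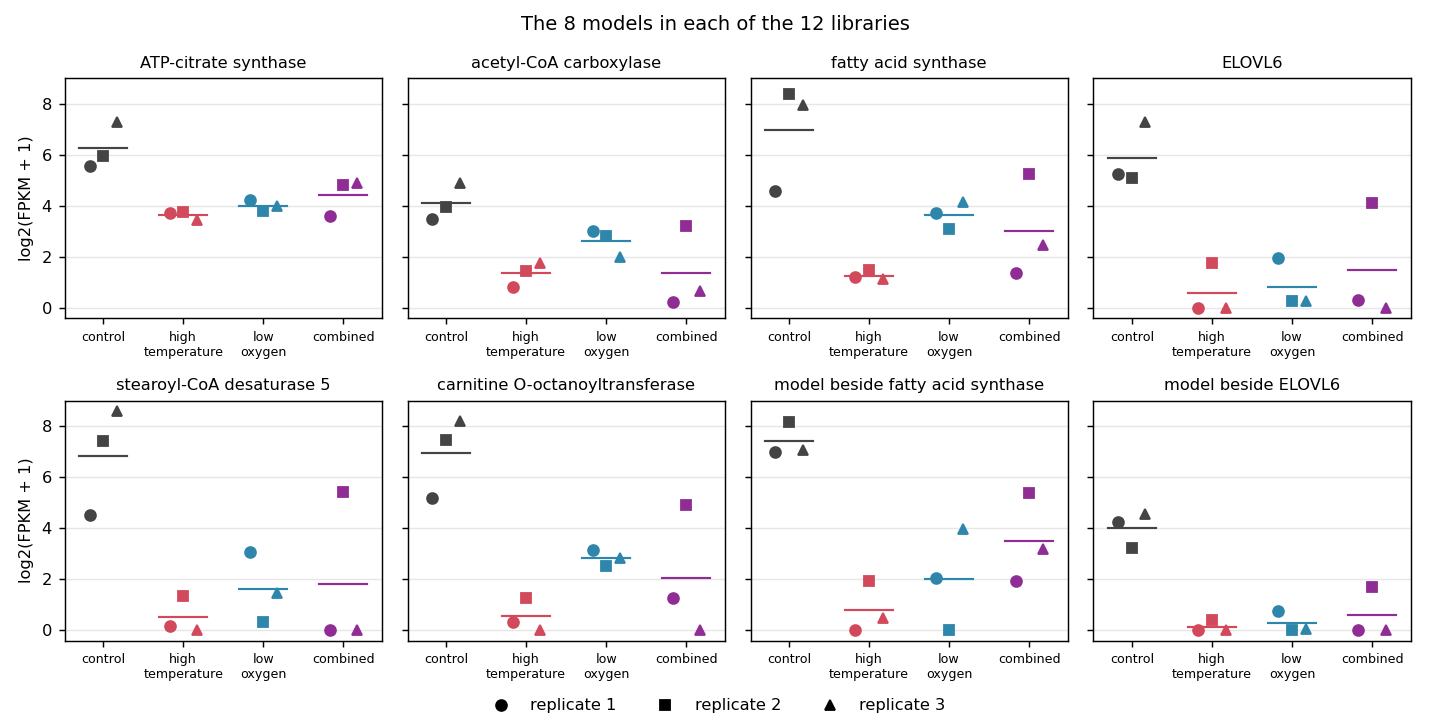
Level of each of the 8 models, as log2(FPKM + 1), in the 12 libraries by group; each point is a library, its shape gives the replicate number and the bar is the group mean. The control group is highest for all 8 models, and combined replicate 2 (square) is the highest library of its group for 7 of them.

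By group mean of FPKM, 7 of the 8 models followed the order control, combined, low oxygen, high temperature. Acetyl-CoA carboxylase was the exception, with low oxygen (5.31 ± 2.15 FPKM, SD, n = 3) above the combined group (2.95 ± 4.48). The combined mean was above the low oxygen mean in the other 7 through 1 or 2 libraries, and its SD exceeded its mean for 6 of those 7. ATP-citrate synthase was the exception, at 22.2 ± 9.71 FPKM. Neighbouring treated groups in that order were thus mostly within their spread. The ratio of the control mean to the heated mean ran from 7.55 for ATP-citrate synthase and 10.9 for acetyl-CoA carboxylase to 142 for fatty acid synthase and 353 for stearoyl-CoA desaturase 5.

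Against the control, in the comparisons that chose the models, the log2 differences of log2(FPKM + 1) ran from -6.60 to -2.62 in the heated group and from -5.39 to -1.51 in low oxygen. This scale understates the change of genes near 0. In warm water 2 of the 8, both assembled models, had an adjusted p under 0.05, against 0.0256% of all tested models lower by that rule. In low oxygen 0 of the 8 did, against 0.0064%. The groups did not overlap for 8 of 8 in the heated group, where 7.24% of all models were lower without overlap, and for 8 of 8 in low oxygen, against 8.66%. The interaction of the stresses, known too when the models were chosen, was positive for all 8, from 1.52 to 8.08, with 0 of the 8 past the threshold against 0.0512% of all models. Since these differences chose the members, nothing is read from those counts.

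The difference of the combined group from the control is the sum of those 2 differences and the interaction, and it uses the same control libraries. It is therefore a description too, and nothing is read from its counts. All 8 differences were negative, from -5.01 for stearoyl-CoA desaturase 5 to -1.83 for ATP-citrate synthase. An adjusted p under 0.05 was found for 1 of the 8, against 0.192% of all tested models lower by that rule. It was the model beside ELOVL6, at log2 -3.42 (SE 0.51, limma adjusted p = 0.00693), which had passed the filter on low values through the control libraries. The other 7 had adjusted p from 0.0575 to 0.144. The octanoyltransferase was at log2 -4.88 (95% interval -7.16 to -2.60). The libraries of the groups did not overlap for 6 of the 8, against 8.06% of all models that were lower without overlap. The exceptions were fatty acid synthase and stearoyl-CoA desaturase 5, in which combined replicate 2 lay above control replicate 1. Across all tested models the median difference was -0.05, and across the 8 it was -3.93. Without combined replicate 2, 7 of the 8 were past the threshold, all but ATP-citrate synthase, and without control replicate 1, 3 were. With combined replicates 1 and 3 both left out, an alternative added after the values were seen, 0 of the 8 were.

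The comparisons among treated groups hold no control library, though each is a difference between comparisons known when the models were chosen. None of the 8 passed in any of them. The combined group against the heated group gave positive differences for all 8, from 0.01 to 2.70, with adjusted p from 0.624 to 1, where 0.218% of all tested models passed in either direction. The interval for the model beside fatty acid synthase ran from 0.54 to 4.85 and was the only one that left out 0. The intervals of the other 7 held 0, and that of stearoyl-CoA desaturase 5 was widest, from -1.65 to 4.27. The combined group against low oxygen gave 5 positive and 3 negative differences, from -1.24 for acetyl-CoA carboxylase to 1.48 for the model beside fatty acid synthase (adjusted p from 0.469 to 0.962, background 0.423%). The heated group against low oxygen gave negative differences for all 8, from -2.39 for fatty acid synthase to -0.14 for the model beside ELOVL6, with adjusted p from 0.975 to 0.993 and a background of 0.0064%. For 4 of the 8, ATP-citrate synthase, acetyl-CoA carboxylase, fatty acid synthase and the octanoyltransferase, every heated library lay below every low oxygen library, against 6.85% of all models. Fatty acid synthase was at 1.40 ± 0.304 FPKM in the heated group and 12.02 ± 4.53 in low oxygen, and its interval ran from -4.57 to -0.21. An exact permutation test of 3 against 3 libraries cannot give a p below 0.1, so it was not used for single models.

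**Figure D2:**
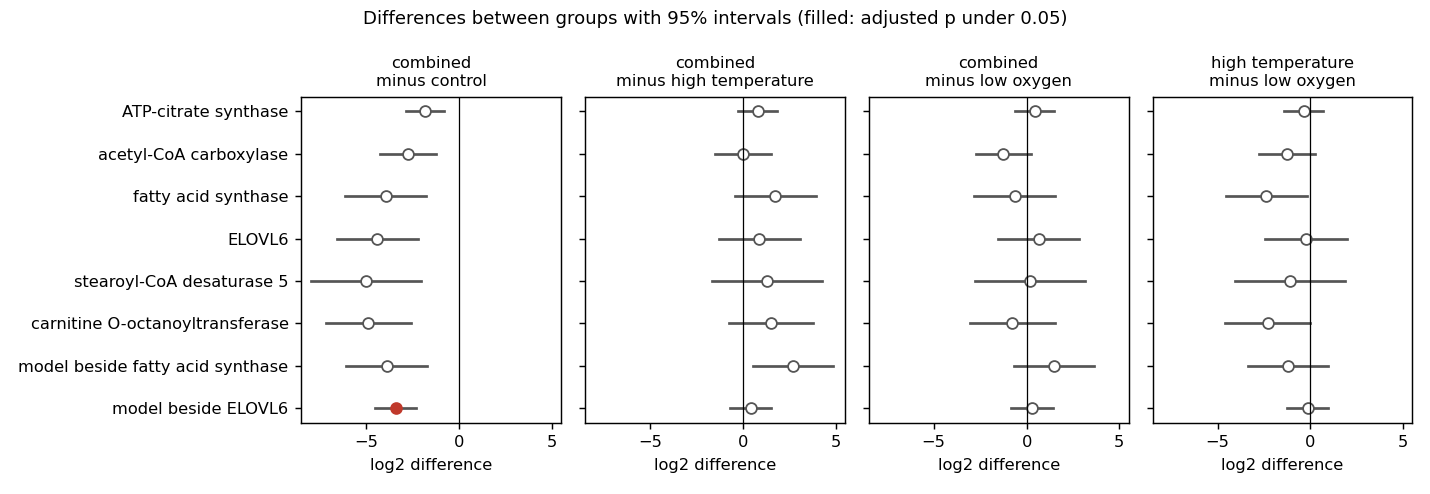
Log2 difference of each model in 4 comparisons, as points with 95% intervals from limma (log2(FPKM + 1), 3 libraries a group); a filled point has an adjusted p under 0.05. The combined group against the control has all 8 points below 0 with 1 filled, and the comparisons among treated groups have none filled.

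The libraries of a group differed in the same direction for most of the 8 models. Combined replicate 2 was the highest library of its group for 7 of 8, and combined replicate 3 for ATP-citrate synthase. High temperature replicate 2 was the highest of its group for 7 of 8, low oxygen replicate 1 for 6 of 8, and control replicate 3 for 6 of 8. Control replicate 1 was the lowest of the control for 6 of 8, and low oxygen replicate 2 the lowest of its group for 7 of 8. The models were chosen together, so this repeats their shared pattern and does not count as 8 observations.

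Markers of gut epithelium were highest as a sum in 1 of these libraries. The 68 listed epithelial models, 44 of them tested and 3 at 0 in all libraries, summed to 498, 600 and 2499 FPKM in control replicates 1, 2 and 3. Their sums ran from 203 to 698 FPKM in the heated group, from 334 to 726 in low oxygen and from 495 to 617 in the combined group. Control replicate 3 thus stood apart, while control replicates 1 and 2 lay within the range of the treated libraries. Carboxypeptidase A1, a digestive enzyme, was at 3.07, 10.1 and 310 FPKM in the control, 9.90 in combined replicate 2, and at most 1.84 in the other 8 treated libraries. Alkaline phosphatase, a brush border marker of the mammalian gut, was at 0.377, 1.94 and 280 FPKM in the control and 13.5 in combined replicate 2. Aminopeptidase N, a brush border peptidase, was detected in all 12 libraries, from 15.5 to 492 FPKM. Intestinal maltase-glucoamylase measured 33.7, 92.5 and 231 FPKM in the control and 11.5, 77.3 and 35.1 in the combined group. Maltase A3 measured 56.9, 70.1 and 222 FPKM in the control and 16.5, 81.5 and 9.08 in the combined group. Aminopeptidase N, both maltases and carboxypeptidase A4 were highest in replicate 3 within the control and in replicate 2 within the combined group. Their control and treated libraries overlapped. Some abundant transporters of the list did not follow these libraries. The transporter slc5a8 (evm_TU_Chr10_77) was at 7.48 to 22.6 FPKM in the control, 42.0 to 77.7 in low oxygen and 143 in combined replicate 1, and the multivitamin transporter evm_TU_Chr2_272 averaged 47.2 FPKM in the control and 74.5 in low oxygen. The median log2 difference of the 44 tested models from the control was -0.15 in the heated group, 0.03 in low oxygen and -0.44 in the combined group. In control replicates 1, 2 and 3, fatty acid synthase was at 22.8, 327 and 244 FPKM and ELOVL6 at 36.4, 32.8 and 155. Without control replicate 3, 1 of the 8 models was past the threshold in the combined group against the control, as with it. None of the epithelial models passed in any of the 6 comparisons between groups, and their part in the levels of the 8 was not tested. Combined replicate 1 held the highest sums of ciliated cell markers, at 1457 FPKM against 72.4 to 409 in all other libraries, and of coelomocyte markers, at 3426 against 539 to 1270. Muscle markers summed to 598 to 628 FPKM in the combined group and 286 to 490 elsewhere, and connective tissue markers to 444 to 573 and 207 to 356. Neuron markers ran from 146 to 347 FPKM over all libraries. The list set up for the germ line summed to 8479 to 121592 FPKM (highest in combined replicate 1). Major yolk protein made up most of these sums, so they are not read as germ line content.

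Both assembled models lie beyond the 3′ end of the gene beside them and are listed on its opposite strand. The model beside fatty acid synthase spans 1174 bases of chromosome 13 (1553338 to 1554511, plus strand), and 193 bases separate it from the last base of that gene, whose model ends in a 3′ UTR of 1241 bases. Its model length is 890 bases, shorter than its span, so the model leaves out an inner stretch. The model beside ELOVL6 covers 2709 bases of chromosome 8 (3374740 to 3377448, minus strand), as a single block. It is separated by 496 bases from the end of ELOVL6, a model with no annotated UTR. Neither overlaps its partner in these coordinates. A further assembled model lies on the strand of fatty acid synthase (chromosome 13, 1553959 to 1554558) and overlaps the opposite-strand one. It measured 0.557, 51.0 and 1.17 FPKM in the control and at most 4.80 in the treated libraries. The labels' protocols name no step that keeps the strand, so reads of those 2 models cannot be told apart where they overlap. For the same reason the listed strand of the model beside ELOVL6, a single block, cannot be checked from its reads. Whether its reads came from the strand of ELOVL6 was not tested.

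**Figure D3:**
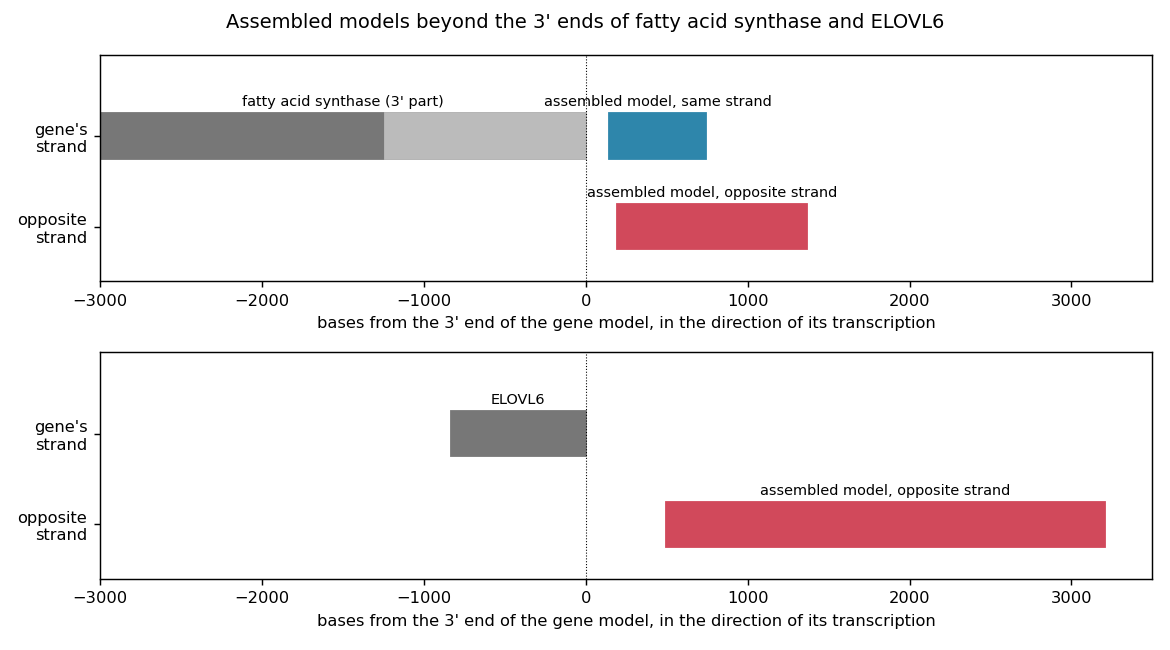
Spans of the assembled models on each strand, by distance in bases from the 3′ end of fatty acid synthase (top, with its 3′ UTR in light grey and only the last part of the gene drawn) and of ELOVL6 (bottom). Both models listed on the opposite strand lie past the gene's end, separated from it by 193 and 496 bases.

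The level of the model beside fatty acid synthase did not follow fatty acid synthase at a fixed ratio. In FPKM, the model was 5.43, 0.861 and 0.541 times fatty acid synthase in control replicates 1, 2 and 3. Control replicate 1 had the lowest fatty acid synthase of the control, but its level of the model beside it was close to that of replicate 3. The ratio was 0, 1.58 and 0.308 in the heated group, 0.258, 0 and 0.881 in low oxygen, and 1.79, 1.10 and 1.79 in the combined group. In low oxygen replicate 2 there was no fragment of the model beside 831 of fatty acid synthase. The ratio of the other model to ELOVL6 was 0.485, 0.247 and 0.142 in the control. Among treated libraries with at least 20 fragments of ELOVL6, it was 0.123 in high temperature replicate 2, 0.238 in low oxygen replicate 1 and 0.136 in combined replicate 2. These 3 values lie in or just below the range of the control. The other 6 treated libraries had at most 2 fragments of ELOVL6 and gave no usable ratio.

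Several models with the same kind of protein match lie in the same stretch of chromosome as 3 of the named genes. They were singled out after their values were seen. On chromosome 15, 6 desaturase models lie together, 5 of them tested. The Delta-9 desaturase evm_TU_Chr15_723 measured 1.18, 19.4 and 336 FPKM in the control and at most 0.996 in any treated library. The Delta12-desaturase evm_TU_Chr15_724 measured 10.8, 9.27 and 113 FPKM in the control and at most 4.64 in treated libraries. Both had the same high control as stearoyl-CoA desaturase 5, most of all in control replicate 3, but neither passed in the combined group against the control (adjusted p = 0.157 and 0.0887). The neighbour evm_TU_Chr15_729, also matched to stearoyl-CoA desaturase 5, measured 13.7, 13.98 and 13.2 FPKM in the control and 11.6, 13.7 and 15.2 in the combined group. Its difference there was -0.02, with an interval from -0.90 to 0.85, so in the combined group the models of one match did not all have the pattern. It measured 13.20, 3.88 and 4.86 FPKM in the heated group and 12.8, 9.50 and 12.9 in low oxygen. These libraries lay below the lowest control library, at 13.22 FPKM, some by little. The log2 differences were -0.98 in the heated group and -0.21 in low oxygen.

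On chromosome 8, 4 elongase models lie in a row. The model evm_TU_Chr8_127, matched to the elongation protein elo-3 of Caenorhabditis elegans, measured 161, 363 and 11.6 FPKM in the control. It measured 0.287, 6.87 and 0 FPKM in the heated group, 31.9, 7.13 and 8.45 in low oxygen, and 9.71, 102 and 1.10 in the combined group. Its control order was the reverse of that of ELOVL6, since control replicate 3 was its lowest and the highest of ELOVL6, and combined replicate 2 was again the highest treated library. The other two elongase models stayed at or below 2.10 FPKM in all libraries. On chromosome 20, 3 models match the octanoyltransferase. Of these, evm_TU_Chr20_590 (19626369 to 19648126) does not lie next to evm_TU_Chr20_593. It measured 9.12, 24.2 and 10.9 FPKM in the control and at most 8.74 in treated libraries. Its log2 difference in the combined group was -1.63 (limma adjusted p = 0.194), against -4.88 for evm_TU_Chr20_593. The third, evm_TU_Chr20_594, was at 1.09 to 3.92 FPKM in the control and at most 0.843 elsewhere. The sources used here do not state how reads of near-identical copies were assigned.

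**Figure D4:**
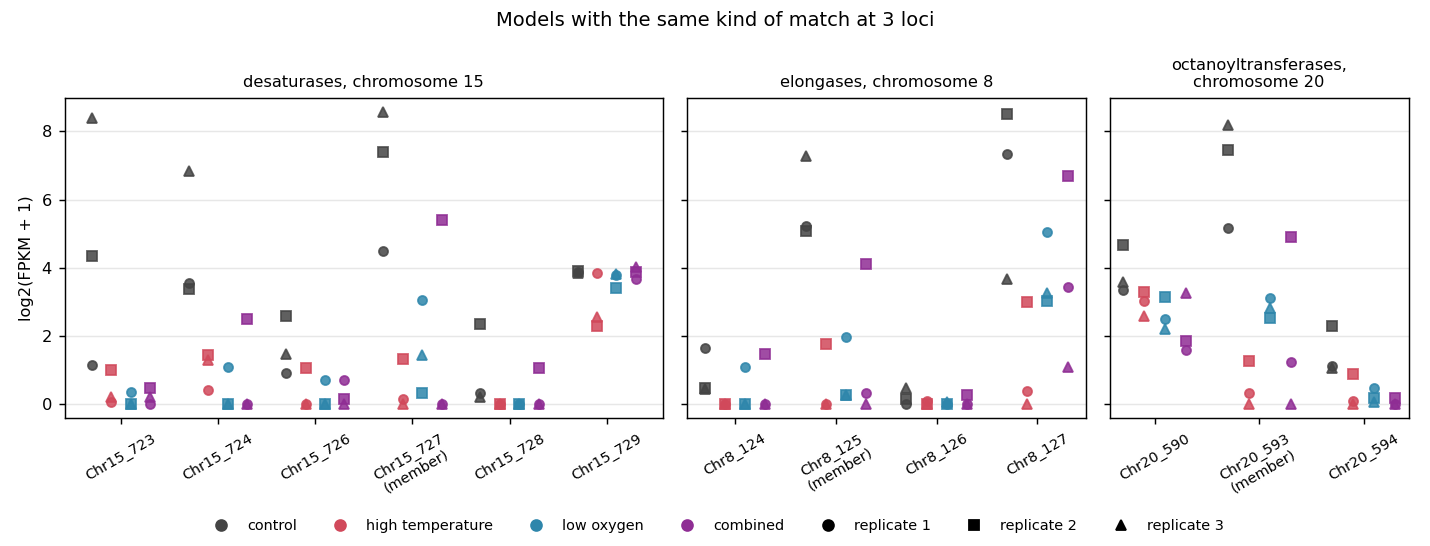
Level, as log2(FPKM + 1), of the desaturase, elongase and octanoyltransferase models in a stretch each of chromosomes 15, 8 and 20. Each point is a library, colour gives the group and shape the replicate number. Chr15_729 has similar levels in control and combined libraries. The member of each locus is high in the control, and combined replicate 2 is its highest treated library. Chr15_723, Chr15_724 and Chr8_127 are also high in some control libraries.

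Of 49 further models listed for fatty acid synthesis, elongation and desaturation, 36 were tested and 0 passed in any of the 7 comparisons fitted, the interaction of the stresses included. Their median difference in the combined group against the control was -0.45, with 30 of 36 negative, against a median of -0.05 and 52.8% negative over all tested models. In warm water 19 of the 36 were negative (median -0.13), and in low oxygen 19 of 36 (median -0.06). Furthest below 0 among the 36 were the desaturases evm_TU_Chr15_723 and evm_TU_Chr15_724 described above. The list does not hold the elongase evm_TU_Chr8_127, also described above. Its log2 differences from the control were -5.39 in the heated group, -2.73 in low oxygen and -2.77 in the combined group. NADP-dependent malic enzyme (ME1), which supplies NADPH, averaged 20.6 ± 20.7 FPKM in the control, 4.94 ± 0.592 in the heated group, 12.03 ± 4.29 in low oxygen and 6.96 ± 4.95 in the combined group. The mitochondrial citrate carrier slc25a1b, which exports the citrate that ATP-citrate synthase cuts, was at 2.36, 3.88 and 23.7 FPKM in the control and at most 3.92 in treated libraries. Only control replicate 3 stood out in either gene. A second elovl6 match (evm_TU_Chr11_878) measured 16.8, 3.01 and 10.04 FPKM in the control, 2.63, 70.7 and 3.41 in the heated group, 8.03, 7.44 and 26.9 in low oxygen, and 42.5, 3.37 and 0.784 in the combined group. In each treated group 1 library stood above the other two, and the groups overlapped. The desaturase evm_TU_Chr22_302 measured 11.9, 42.7 and 13.7 FPKM in the control and 36.0, 45.5 and 37.1 in low oxygen. It measured 5.89, 4.28 and 10.4 FPKM in the heated group and 18.7, 34.3 and 12.3 in the combined group. Its mean was thus highest in low oxygen, unlike that of stearoyl-CoA desaturase 5.

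Regulators of the pathway were listed in 15 models, all tested, and 0 passed in any comparison. Sterol regulatory element-binding protein 1 (SREBF1), which in mammals switches on the genes of fatty acid synthesis, measured 50.9, 60.7 and 31.4 FPKM in the control. It measured 23.3, 27.0 and 28.6 FPKM in the heated group, 52.2, 70.4 and 72.6 in low oxygen, and 36.0, 71.6 and 72.0 in the combined group. Its heated libraries were below all control libraries, and the other treated groups overlapped the control, so its order of groups was not that of fatty acid synthase. Mid1-interacting protein 1A (mid1ip1a), whose mammalian counterpart promotes the polymers of acetyl-CoA carboxylase, measured 311, 424 and 713 FPKM in the control and 159 to 280 in all treated libraries. Those groups did not overlap, but the difference did not pass (log2 -1.20, -1.17 and -0.88 in the heated group, low oxygen and the combined group, adjusted p from 0.357 to 0.676).

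Genes that use fatty acids were also listed. In glycerolipid synthesis and lipid droplets, 18 models were tested and 0 passed in any comparison. Negative differences from the control numbered 11 in the heated group, 10 in low oxygen and 15 in the combined group. Over all tested models, 50.4%, 49.2% and 52.8% were negative in these comparisons. Perilipin-2 (PLIN2), a coat protein of lipid droplets, measured 55.6, 84.9 and 54.5 FPKM in the control and 174, 110.6 and 57.4 in the combined group, which overlapped. Of 61 models for carnitine acyltransferases and fatty acid oxidation other than evm_TU_Chr20_593, 50 were tested and 0 passed. Their medians were -0.53 in the heated group, -0.75 in low oxygen and -0.76 in the combined group, with 40, 43 and 42 of the 50 negative. The shares over all tested models are those given above. The mitochondrial long-chain acyl-CoA dehydrogenase (ACADL, evm_TU_Chr10_271) measured 17.9, 1.47 and 1.73 FPKM in the control, 16.9, 418 and 31.4 in the heated group, 2.77, 177 and 86.4 in low oxygen, and 32.4, 8.26 and 4.08 in the combined group. All treated groups overlapped the control, and heated replicate 2 carried most of its group's mean. The means of ACADL in the treated groups were above the control mean, against the direction of most of its list. In activation, binding and uptake, 26 of 31 models were tested and 0 passed. The scavenger receptor SCARB1 (evm_TU_Chr13_362), a lipid uptake receptor, was at 94.5, 105 and 388 FPKM in the control and 0, 26.4 and 0 in the combined group (log2 -5.71, SE 1.62, adjusted p = 0.16).

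**Figure D5:**
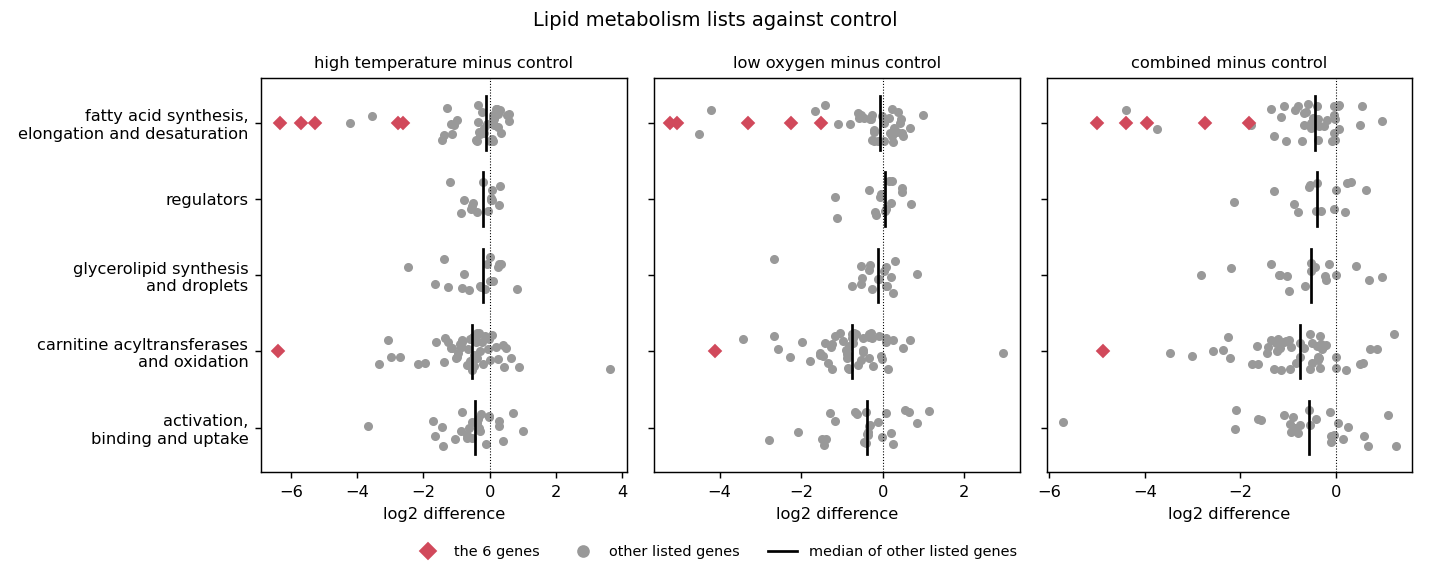
Log2 differences from the control of the lipid metabolism lists in the heated group, low oxygen and the combined group; diamonds are the 6 named genes, grey points the other tested models of each list and black bars their medians. The diamonds lie from -6.40 to -1.51, and the medians of the other models lie between -0.76 and 0.06. The 6 genes were chosen by their low levels under heat or low oxygen, so nothing is read from this gap.

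Some models outside the 8 had levels much like those of fatty acid synthase over the 12 libraries. Likeness was the Pearson correlation in log2(FPKM + 1) among 15614 other tested models, a description that rests largely on the gap between control and treated libraries. The octanoyltransferase ranked first (r = 0.96) and stearoyl-CoA desaturase 5 second (r = 0.94). The other members ranked 15 to 61, with r from 0.82 for the model beside ELOVL6 to 0.88 for the model beside fatty acid synthase. Within the 9 treated libraries alone, the octanoyltransferase had r = 0.90 (rank 11), and ELOVL6 had 0.65 (rank 485). The 6 other models most like it were evm_TU_Chr9_100 and evm_TU_Chr9_7, both matched to the dehydrogenase DHRS4, the 2-hydroxyacyl-CoA lyase HACL1, assembled models matched to peroxisomal sarcosine oxidase and to an enoyl-CoA delta isomerase, and an unnamed assembled model, with r from 0.90 to 0.94. The DHRS4 match evm_TU_Chr9_100 measured 107, 218 and 476 FPKM in the control, 15.9, 12.5 and 3.73 in the heated group, 31.0, 14.2 and 21.9 in low oxygen, and 5.81, 80.4 and 11.3 in the combined group. Its control libraries were above all treated ones, and combined replicate 2 was the highest treated library. HACL1, which in mammals cleaves branched and hydroxylated chains in the peroxisome, measured 4.56, 8.59 and 15.3 FPKM in the control and 0.894 to 4.45 in treated libraries.

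Some models that flank the members had other levels, and some shared part of the pattern. Toll-like receptor 3, beside ATP-citrate synthase, was at 12.9 to 20.7 FPKM in the control and 4.46 to 17.0 in treated libraries. The kinase-like otk, beside the octanoyltransferase, was at 6.77 to 15.6 and 1.42 to 8.96 FPKM. Taken over all treated libraries, both overlapped the control, unlike the genes beside them. In the combined group Toll-like receptor 3 was at 4.46, 7.53 and 4.65 FPKM, below every control library. Its log2 difference there was -1.34 (limma adjusted p = 0.16). An assembled model that flanks the octanoyltransferase on its own strand was at 5.77, 4.76 and 1.81 FPKM in the control and at most 2.70 in treated libraries. It was at most 0.368 in low oxygen and 0.608 in the combined group, below every control library. Next to the desaturase, evm_TU_Chr15_728 was at 0.254, 4.12 and 0.152 FPKM in the control and 1.07 in combined replicate 2. It was at 0 in every other treated library and did not pass the filter on low values. Next to acetyl-CoA carboxylase, evm_TU_Chr13_552 measured 0.384, 0.486 and 0.246 FPKM in the control, 9.11, 0.34 and 2.16 in the heated group, 2.26, 3.15 and 0.833 in low oxygen, and 2.70, 0.669 and 1.61 in the combined group. All treated libraries but heated replicate 2 were thus above the control, unlike the gene beside it. On its other side, evm_TU_Chr13_554 did not exceed 0.157 FPKM in any library.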

How the data were processed

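Per the labels' protocols, mRNA of intestines from single animals was sequenced on an Illumina HiSeq platform after random-hexamer priming, with no step named that keeps the strand. The authors deposited FPKM per gene model, per the file headers; the sources used here name no aligner, counter or genome build. FPKM times model length was a whole multiple of a library-specific step in 100% of values (tolerance 1e-06), which gave the fragments per library (8146906 to 10855050). The 12 libraries were grouped as the labels name them. The main test was limma 3.58.1 in R 4.3.3 on log2(FPKM + 1), with a mean-variance trend, all 4 groups in 1 fit, models at FPKM 1 or more (3 or more libraries), two-sided p adjusted by Benjamini-Hochberg over 15615 models, and a threshold of 0.05. The analysis plan listed the combined group against the control as a test of the members; it is given as a description, because it is the sum of comparisons that were known when they were chosen. The fit was also run on simulated fragments whose spread was set and not taken from these libraries, so nothing is read from that run. The alternatives were pseudocounts of 0.1 and 5, no filter, a minimum of 5 FPKM, the replicate number as a block, 2 groups alone, library weights, equal library sums, voom on recovered fragments and each library left out. The members, the 5 lists of lipid genes and the marker lists were chosen with earlier results of these data known. Named in the text are the members, models of the synthesis list, the models with the highest mean FPKM of the other lists, the 6 models most like fatty acid synthase and the nearest models on either side of the members; other names were chosen after their values were seen.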

Additional observations from a re-analysis of the deposited data

How the results depend on the processing

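Direction against the control was the same for all 8 models under every alternative. The number of the 8 past the threshold in the combined group against the control, 1 in the main analysis, moved with most settings. It was 0 with a pseudocount of 0.1, a minimum of 5 FPKM, the 2 groups alone, voom on recovered fragments, or combined replicates 1 and 3 left out. It was 2 with a pseudocount of 5 or with equal library sums, and 3 with library weights. Leaving out 1 library gave 1 to 7. The model beside ELOVL6 passed in 11 of 16 alternatives. In the 3 comparisons among treated groups 0 of the 8 passed under any alternative. Over all models, the alternatives gave 30 to 212 calls in the combined group against the control (123 in the main analysis), 2 to 71 against the heated group (34), 22 to 113 against low oxygen (66) and 0 to 13 between the heated and low oxygen groups (1). Same-numbered libraries correlated between -0.17 and 0.18 in their deviations from group means, over 0.1 in 6 of 18 pairs, so the numbers were not taken to pair the animals. Fitted as a replicate block, 1 of the 8 passed, the model beside ELOVL6 (adjusted p = 0.0225). In fragments, the control median ratio of that model to ELOVL6 was 0.804 in place of 0.247, by the difference in model length. Equal library sums moved the median of all models from -0.05 to -0.77 in the combined group against the control, so values there are relative to that shift.

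Between treated groups, differences that had not passed changed sign in places, and the cause was not tested. In the combined group against the heated group, the difference became -0.057 for ATP-citrate synthase and -0.67 for acetyl-CoA carboxylase with equal sums. For the carboxylase it was also -0.49 with a pseudocount of 0.1 and -0.42 with voom. With 1 library left out it ran from -0.91 to 0.58 for the carboxylase, -0.42 to 1.62 for ELOVL6, -0.49 to 2.21 for the desaturase and -0.12 to 0.71 for the model beside ELOVL6. In the combined group against low oxygen, it became -0.58 for ATP-citrate synthase and -0.51 for the desaturase with equal sums, and for the desaturase -1.15 with a pseudocount of 0.1 and -0.71 with voom. With 1 library left out it ran from -1.75 to 0.20 for fatty acid synthase, -0.66 to 1.39 for ELOVL6 and -1.59 to 1.10 for the desaturase. It ran from -2.20 to 0.25 for the octanoyltransferase and from -0.26 to 0.57 for the model beside ELOVL6. Without combined replicates 1 and 3 it was 0.59, 1.60 and 2.09 for the carboxylase, fatty acid synthase and the octanoyltransferase. Between the heated and low oxygen groups, leaving out 1 library gave -0.82 to 0.33 for ELOVL6 and -0.27 to 0.10 for the model beside it. Models at 0 to 3 fragments in treated libraries limit what these differences can resolve.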
